A study of Mus musculus with 4 samples.

Results

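Cd209a conventional type 2 dendritic cells of the mouse renal capsule, the connective tissue layer that encloses the kidney, were selected from single-cell RNA libraries by the transcripts they carried. A barcode was kept with at least 500 unique molecular identifiers (UMIs, each one captured transcript), 300 or more genes, and a mitochondrial share of no more than 20%. A kept barcode was selected when it held at least 2 UMIs of Cd209a, at least 5 of H2-Aa and H2-Ab1 together, fewer than 6 of C1qa, C1qb and C1qc together, and 0 of Xcr1, Clec9a, Cd79a and Cd3e. The selection found 733 cells among 37361 kept barcodes and 39436 deposited ones. Whole capsules of young and of aged mice, both without treatment, were dissociated with enzymes, and each age gave 2 libraries. The labels used here name neither strain, sex nor age in months, nor how many animals went into a library. The p-values below therefore measure only the spread between libraries of an age, which may be technical.

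Conventional dendritic cells take up antigen, cut it into peptides and show the peptides to T cells on major histocompatibility complex (MHC) molecules. The type 1 lineage is marked by Xcr1 and Clec9a and depends on Irf8, whereas the type 2 lineage carries Sirpa and Itgam, depends in part on Irf4 or Klf4, and is known for priming CD4 T cells through MHC class II. Cd209a encodes a mouse relative of the lectin DC-SIGN, found on many type 2 cells and on some cells that arise from monocytes. In the kidney such cells lie among macrophages with which they share several lectins, among them Clec10a and Mgl2.

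The libraries held 51180311 to 70925446 UMIs, and 92.5% to 97.4% of their barcodes were kept. The selected cells numbered 119 and 114 in young replicates 1 and 2, and 166 and 334 in aged replicates 1 and 2. Their median depth was 7744 and 7115 UMIs in the young libraries and 10194 and 6506 in the aged ones. Their summed UMIs ran from 899720 to 2344633 a library. Any pair of libraries shared 22 to 40 barcode sequences, and 1 selected barcode was shared, between the aged libraries. Doublet scores were ranked, and the highest were marked up to a number set beforehand from the count of kept barcodes. In young replicates 1 and 2 and aged replicates 1 and 2 this marked 5.88%, 7.02%, 7.23% and 11.7% of the selected cells. Over all kept barcodes it marked 7.19%, 7.71%, 5.41% and 9.58%. Between 9 and 38 selected cells a library carried transcripts of another cell class, namely fibroblast, tubule, endothelial or T cells.

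Among genes the selection did not use, Napsa and Plbd1 were found in most selected cells, and Flt3 and Zbtb46 in a minority. Napsa, an aspartic protease of antigen-presenting cells, was detected in 93.3% and 95.6% of cells in the young libraries and in 98.8% and 96.7% in the aged ones. Shares were also taken after each cell was thinned to 3000 UMIs, which left 110, 108, 157 and 320 cells in young replicates 1 and 2 and aged replicates 1 and 2. Thinned, the Napsa shares were 80.9%, 83.3%, 87.3% and 88.8%, against 0.884% to 1.78% in fibroblasts, which should lack the gene and show the level of free RNA. Plbd1, a phospholipase-like protein of myeloid cells, was found in 83.6% to 91.1% of the thinned cells and in 1.55% to 2.05% of the thinned fibroblasts. Flt3, the receptor for the growth factor that sustains dendritic cells, was found in 13.9% to 17.8% of the thinned cells and in at most 0.312% of the fibroblasts. Zbtb46, a transcription factor of conventional dendritic cells, was found in 5.56% to 12.2% of the thinned cells and in 1.49% to 2.36% of the fibroblasts. Without thinning, Plbd1 was found in 95.6% to 99.4% of the cells and Flt3 in 24.6% to 45.8%. These 4 genes did not set the Cd209a cells apart from type 1 dendritic cells. Thinned, those gave 76.6% to 84.0% for Napsa and 93.6% to 97.9% for Plbd1. For Flt3 they gave 28.7% to 39.3% and for Zbtb46 13.8% to 25.5%, above the Cd209a cells. Of the 20 genes in a list of type 2 markers that the selection did not use, 19 had UMIs, and Clec4a4 was at 0. Such a count does not tell cell types apart, as 16 of 16 macrophage markers and 8 of 8 fibroblast markers had UMIs too.

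Outside the selection genes, the highest ratios over the average of all other kept barcodes were those of Mcemp1, Ltb4r1, H2-Oa, Clec4b1, H2-DMb2, Slamf7 and Klrd1. Levels are given in CPM, the usual count scaled to the summed UMIs of the gate in a library, and describe the selection rather than test it. Mcemp1, a membrane protein first known from mast cells, stood at 108, 150, 251 and 235 CPM in young replicates 1 and 2 and aged replicates 1 and 2, and averaged 23.3 times the level of all other barcodes. Ltb4r1, the receptor for the chemoattractant leukotriene B4, stood at 260, 282, 200 and 237 CPM and averaged 15.1 times the level elsewhere. H2-Oa, a subunit of the H2-O protein that restrains peptide loading onto MHC class II, averaged 209 CPM and 11.8 times the level elsewhere. Klrd1, the CD94 lectin best known from natural killer cells, averaged 283 CPM and 8.56 times the level elsewhere. Each of these 7 genes was higher in the selected cells than in the average of the other barcodes in all 4 libraries. Single gates came close or stood higher: Mcemp1 averaged 182 CPM in mature dendritic cells and 188 CPM in Ly6c2 monocytes. H2-Oa averaged 149 CPM in type 1 dendritic cells and 125 CPM in B cells, and Klrd1 averaged 538 CPM in the natural killer and innate lymphoid gate. Napsa averaged 797 CPM in the selected cells, beside 669 CPM in the young and 1110 CPM in the aged libraries of the tubule gate.

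Against the nearest other gates, each set by a few defining transcripts, the contrasts followed the lineages. Mcemp1 averaged 32.2 times, Clec10a 31.3 times and Mgl2 23.6 times the level of the 603 type 1 dendritic cells with Xcr1 or Clec9a. Itgam (ENSMUSG00000030786, the CD11b integrin) averaged 210 CPM against 8.1 CPM in those type 1 cells. Irf8 went the other way, at 23.2 CPM against 1680 CPM, and so did the double-stranded RNA sensor Tlr3, at 2.76 against 222 CPM. Against the 9175 macrophages of the C1q gate, H2-Oa was 68.2 times and Klrd1 67.8 times as high, while the platelet factor Pf4 was at 13.3 against 3154 CPM and the ficolin Fcna at 9.09 against 1993 CPM. In the 169 monocytes with Ly6c2, H2-Oa was at 0 CPM in 3 libraries and at 4.46 CPM in aged replicate 2, where the selected cells held 259 CPM. Ly6c2 itself was at 25.2 against 1180 CPM, Plac8 at 101 against 3320 CPM, and Chil3 was at 0 in all 4 libraries of selected cells. Clec10a and Mgl2 did not separate the cells from macrophages, as the map of gene levels by gate shows.

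**Figure D1:**
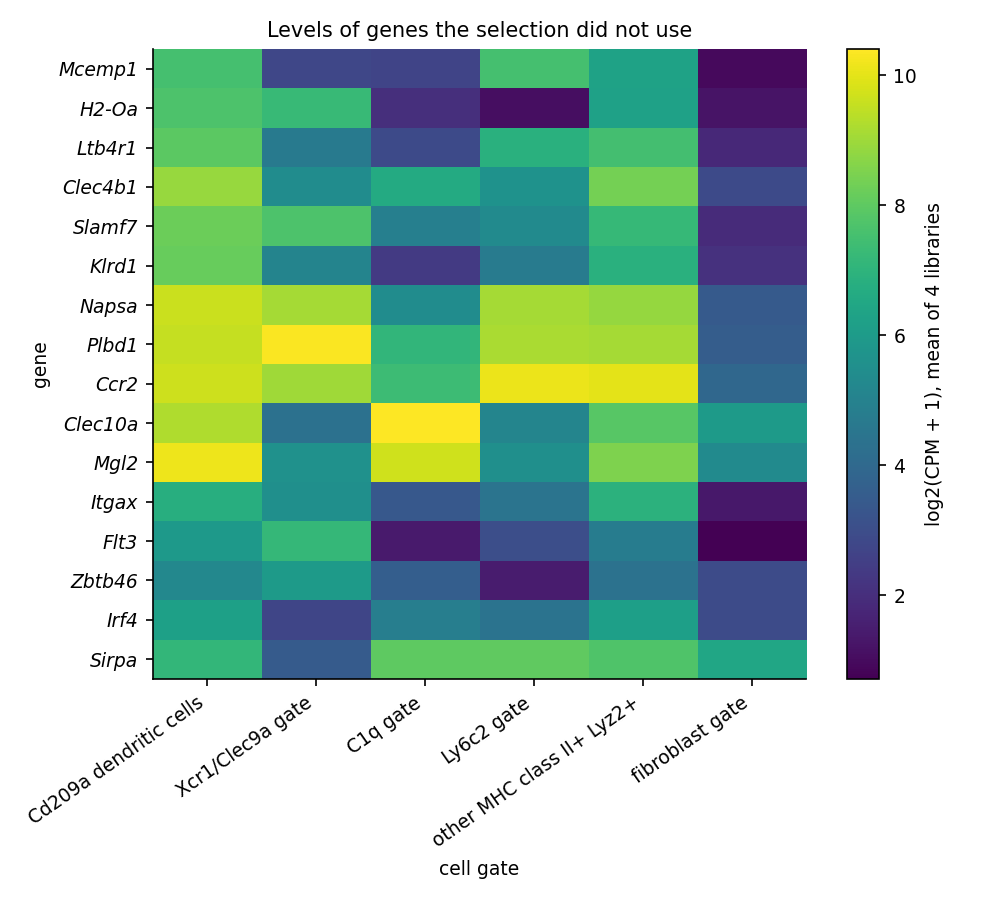
Levels of 16 genes that the selection did not use, as log2(CPM + 1) averaged over 4 libraries, in the Cd209a dendritic cells and 5 other gates. Klrd1 and H2-Oa are high in the first column and near the bottom of the scale in the C1q gate, whereas Clec10a and Mgl2 are high in both.

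Pooled over libraries, cells with few Cd209a UMIs, on either side of the limit, had Napsa near the level of the rest and more Retnla and Lyz1. The 88 cells with exactly 2 Cd209a UMIs held 722 CPM of Napsa and 313 CPM of Klrd1, beside 843 and 319 CPM in the 645 cells with 3 or more. The 129 otherwise eligible barcodes with 1 Cd209a UMI, which were left out, held 748 CPM of Napsa and 305 CPM of Klrd1. Retnla, a secreted protein induced by interleukin 4 and 13, was at 4811 CPM with 2 Cd209a UMIs, 3988 CPM with 1 and 661 CPM with 3 or more. Lyz1, a lysozyme, was at 754, 608 and 28.3 CPM in the same order, but in aged replicate 1 it was at 0 CPM with 1 Cd209a UMI. The 961 barcodes with 0 Cd209a UMIs held 329 CPM of Napsa and 87.0 CPM of Klrd1. On the C1q side, the 42 selected cells with 3 to 5 UMIs held 732 CPM of Napsa, and the 9 barcodes with 6 to 8, left out, held 430 CPM. The 1073 with 9 or more held 58.4 CPM of Napsa and 24201 CPM of Apoe, a lipid carrier abundant in macrophages. The H2 requirement left out 2 barcodes.

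The share of Cd209a dendritic cells among kept barcodes was about 2-fold higher in aged capsules. It was 1.32% and 1.18% in the young libraries and 2.45% and 2.79% in the aged ones. Both aged shares lay above both young shares. In edgeR's quasi-likelihood test over 14 gates the log2 difference was 1.07 (SE 0.21, adjusted p = 0.0076, n = 2 libraries an age). The fibroblast gate fell over the same libraries (log2 difference −1.30, adjusted p = 0.0031) and the T cell gate rose (3.27, adjusted p = 0.00027). The rise was not particular to the Cd209a cells. Type 1 dendritic cells rose by 1.18 (adjusted p = 0.0072), mature dendritic cells by 2.17 (0.0078) and Ly6c2 monocytes by 1.66 (0.0072). The C1q macrophage gate differed by −0.33 (adjusted p = 0.14). The shares sum to a fixed total, so a rise of Cd209a cells cannot be told apart from a loss of fibroblasts here. Scaled by TMM across the gates, which centres on a typical gate, the log2 difference was 0.19 (adjusted p = 0.41), and without young replicate 2 it was 0.99 (adjusted p = 0.054).

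Within the immune compartment and within the dendritic cells the share did not pass the test. Among barcodes of the immune gates it was 3.53%, 3.33%, 3.80% and 4.74%, a log2 difference of 0.33 (adjusted p = 0.12 by edgeR). Among the 3 dendritic gates it was 52.42%, 55.9%, 48.1% and 52.35%. The aged values lay below the young ones by as little as the gap between 52.42% and 52.35%, and the log2 difference was −0.09 (SE 0.09, adjusted p = 0.67). The type 1 gate beside it differed by −0.0019 on that scale (adjusted p = 0.99), and the small gate of mature dendritic cells with Ccr7 and Fscn1 by 1.00 (adjusted p = 0.061).

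**Figure D2:**
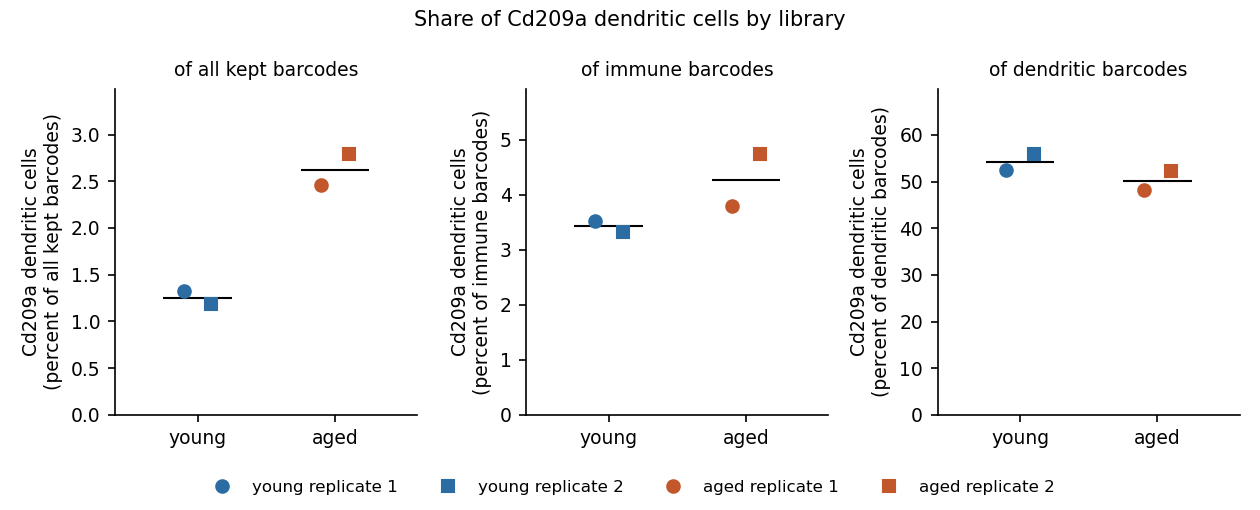
Percent of barcodes that were Cd209a dendritic cells in each library (points; blue young, orange aged; circle replicate 1, square replicate 2) with the mean of the 2 libraries (line), over 3 denominators. The aged points stand above the young ones over all kept barcodes (2.45% and 2.79% against 1.32% and 1.18%), while among dendritic barcodes the higher aged point (52.35%) lies just under the lower young one (52.42%).

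The selected cells were not uniform, and some of them were rich in Lyz1, Fn1 and Lpl. These encode a lysozyme, the matrix protein fibronectin and lipoprotein lipase, and were chosen to describe this group after their values were seen, so no test is given for it. In the young libraries Fn1 and Lpl were highest among other gates in the remaining myeloid barcodes with MHC class II (3819 and 1782 CPM). In the aged libraries they were highest in the fibroblast gate (1623 and 911 CPM). The part of fibroblast transcripts in this group was not tested. Of the young cells, 65 of 119 and 69 of 114 held 0 UMIs of the 3 genes together, while 19 and 15 held 15 or more. With a limit of 5 UMIs, 29 of 119 (24.4%, exact 95% interval 17.0 to 33.1) and 23 of 114 young cells (20.2%, 13.2 to 28.7) were in the group. In the aged libraries 14 of 166 (8.43%, 4.69 to 13.7) and 26 of 334 (7.78%, 5.15 to 11.2) were. The intervals cover counting error only, and between 5 and 12 cells a library held 3 to 6 UMIs, near the limit. Median depth in the group was 9136, 10188, 14624 and 9942 UMIs, above the 7071, 6715, 10068 and 6392 UMIs of the other cells. Thinned to 3000 UMIs, cells with 3 or more UMIs of the 3 genes made up 20.9%, 13.9%, 7.01% and 6.56%, so the aged libraries were also lower at equal depth.

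**Figure D3:**
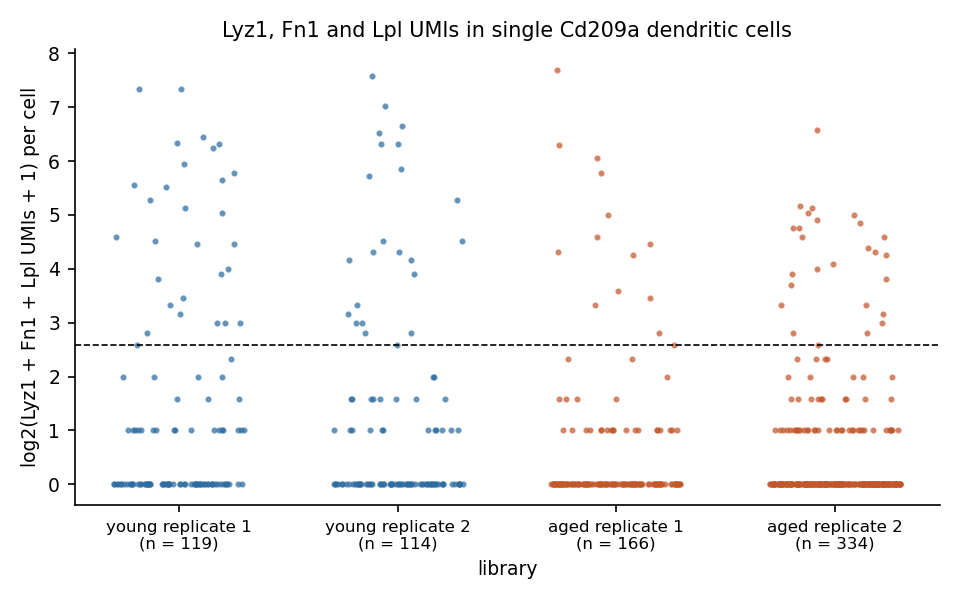
UMIs of Lyz1, Fn1 and Lpl together in each of the 733 cells, as log2(UMIs + 1), by library (1 point per cell, spread sideways for clarity; dashed line at 5 UMIs). Most cells lie at 0, and 29 and 23 young cells against 14 and 26 aged cells lie on or above the line.

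In the young libraries the group carried more Retnla and Ccl6 and less of the dendritic markers. Retnla stood at 9773 and 6111 CPM in the young cells of the group and at 466 and 440 CPM in the other young cells. Flt3 stood at 7 and 19 CPM in the group and 94 and 52 CPM outside it, and Klrd1 at 34 and 63 CPM against 221 and 258 CPM. In the group these values rest on 2 and 5 UMIs of Flt3 and 10 and 17 of Klrd1. Zbtb46 stood at 13.8 and 29.9 CPM in the group, on 4 and 8 UMIs, and 37.3 and 38.0 CPM outside it. Ccl6, a CC chemokine of myeloid cells, stood at 2156 and 1560 CPM in the group and 575 and 707 CPM outside it. Napsa was present in both, at 362 and 459 CPM in the group and 773 and 891 CPM outside. In the remaining myeloid barcodes with MHC class II, outside the Cd209a selection, Retnla stood at 15006 and 13360 CPM in the young libraries. The group was mixed, and its makeup differed between the ages. At most 2 Retnla UMIs were found in 6 of 29 and 9 of 23 young cells of the group, and in 9 of 14 and 17 of 26 aged ones. The median was 95 and 32 Retnla UMIs in the young and 1 and 0.5 in the aged cells. Klrd1 reached 6 or more UMIs in 0 young cells of the group and in 3 and 4 aged ones. In the young libraries, with Flt3 and Klrd1 this low, these 2 markers bear out the name of a conventional type 2 dendritic cell less well for the group than for the cells outside it. This rests on few UMIs.

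A second division was the cell cycle. Mki67 or Top2a, proteins of dividing cells, were found in 21 of 119 and 21 of 114 young cells and in 33 of 166 and 45 of 334 aged cells. Thinned to 3000 UMIs, the shares were 11.8%, 13.9%, 15.9% and 10.9%, with overlapping ages, against 2.09% to 4.5% in the C1q macrophages and at most 1.61% in fibroblasts. Type 1 dendritic cells gave 17.0%, 22.1%, 12.4% and 18.2%, so the cycling share did not set the Cd209a cells apart from them. Ccl17, a chemokine for Th2 cells, stood at 108 and 604 CPM in the young and 31.4 and 193 CPM in the aged libraries (log2 difference −1.62, adjusted p = 0.40), with a wide spread within each age. Fcgr1, Ly6c2, Ccr7 and Esam were found in at most 3.75% of the thinned cells of any library, and Il12b, a subunit of interleukin 12, had no UMI in any of the 733. This allows up to 1.10% of cells with a UMI in aged replicate 2 and up to 3.18% in any library (exact 95% intervals) and sets no limit on cells that express the gene.

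Between young and aged capsules the Cd209a cells differed in 104 of 8686 tested genes, which is 1.2% of them. In the aged cells 65 genes were higher (0.748%) and 39 were lower (0.449%), by edgeR's quasi-likelihood test on UMIs summed per library at an adjusted p under 0.05. The selection genes and mitochondrial transcripts were fitted but not counted. The median log2 difference over all tested genes was −0.01. Beside this, 23.3% of tested genes had both aged libraries above both young ones and 23.8% had them below, so that separation alone is common. Levels in the age comparison are CPM after TMM scaling. The counts depended on single libraries: without young replicate 1 they were 1 higher and 11 lower, and without young replicate 2 they were 3 and 8. Leaving out the Lyz1, Fn1 and Lpl group left 3 higher (0.0386% of 7782 genes) and 14 lower (0.18%).

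Klrd1 and Cx3cr1 were among the 12 largest rises. Klrd1 was also the 1 gene to rise of 17 tested type 2 markers, of which 0 fell, beside 0.748% of all tested genes higher and 0.449% lower. It stood at 159 and 199 CPM in the young and at 423 and 384 CPM in the aged libraries, 2.25-fold higher by the means. The aged libraries did not overlap the young ones, and the log2 difference was 1.17 (SE 0.14, adjusted p = 0.014). Thinned to 3000 UMIs, a Klrd1 UMI was found in 34.5% and 42.6% of young cells and 58.0% and 55.9% of aged cells, beside 48.7%, 61.4%, 80.1% and 72.5% without thinning and at most 1.2% of fibroblasts. Klrd1 also stood higher in other gates of the aged libraries, for example at 338 and 265 CPM in the young against 820 and 726 CPM in the aged natural killer and innate lymphoid gate. Without the Lyz1, Fn1 and Lpl group, Klrd1 stood at 216 and 261 against 461 and 410 CPM and still passed (log2 difference 0.87, adjusted p = 0.047).

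Cx3cr1, the receptor for the adhesive chemokine fractalkine, stood at 24.2 and 28.7 CPM in the young and 104 and 87.9 CPM in the aged libraries, 3.63-fold higher (log2 difference 1.85, SE 0.20, adjusted p = 0.011). Both aged values lay well above both young values. Among thinned cells 5.45% and 5.56% in the young libraries and 23.6% and 19.4% in the aged ones held a UMI, against at most 1.83% of fibroblasts. Without thinning the shares of Cd209a cells were 10.1%, 11.4%, 46.4% and 27.8%. The remaining myeloid barcodes with MHC class II moved the same way. Thinned, 7.41% and 9.40% of them in the young and 21.4% and 25.9% in the aged libraries held a Cx3cr1 UMI. Without the Lyz1, Fn1 and Lpl group Cx3cr1 passed as well (log2 difference 1.38, adjusted p = 0.032). Cx3cr1 was the single member of 11 tested chemokine receptors and migration genes to pass, beside 1.2% of all tested genes. Ccr2, which guides monocytes and type 2 cells out of the blood, stood at 977 and 830 against 772 and 673 CPM (adjusted p = 0.26).

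Mcemp1 rose from 105 and 149 CPM to 265 and 247 CPM, a log2 difference of 1.02 (adjusted p = 0.038). Cd300c2, an activating receptor of myeloid cells, rose from 152 and 152 CPM to 307 and 292 CPM (0.98, adjusted p = 0.014), and Ms4a6c, a tetraspan membrane protein, from 318 and 380 CPM to 661 and 600 CPM (0.85, adjusted p = 0.026). In each of the 3 genes the ages were apart. None of the 3 passed without the Lyz1, Fn1 and Lpl group, where the log2 differences were 0.80, 0.65 and 0.55 with adjusted p of 0.17, 0.12 and 0.18. The small vault RNA Vaultrc5 (29.3 and 35.3 CPM to 130 and 77.1 CPM, adjusted p = 0.042), Fam105a, Limd2 and the cold-inducible RNA-binding protein Rbm3 were also among the 12 largest rises.

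Of 12 tested genes of MHC class II presentation 5 rose and 0 fell, with a median log2 difference of 0.38 beside −0.01 for all tested genes. H2-Eb1, the beta chain of the I-E molecule, stood at 9009 and 9250 CPM in the young and 13023 and 12474 CPM in the aged libraries (log2 difference 0.48, SE 0.06, adjusted p = 0.016). The invariant chain Cd74, which guides class II through the cell, stood at 24888 and 25660 against 31976 and 31036 CPM (0.32, adjusted p = 0.033). H2-Oa stood at 132 and 172 against 280 and 273 CPM (0.86, adjusted p = 0.039). Ctss, the protease that trims the invariant chain, stood at 866 and 957 against 1366 and 1343 CPM (0.57, adjusted p = 0.033). Ifi30, a reductase that opens disulphide bonds of antigens, stood at 866 and 1012 against 1474 and 1402 CPM (0.61, adjusted p = 0.037). In all 5 the aged libraries lay above the young ones. Ciita, the class II master regulator, stood at 122 and 117 against 152 and 136 CPM and did not pass (adjusted p = 0.42).

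The class II calls depended on including the Lyz1, Fn1 and Lpl group. Without the Lyz1, Fn1 and Lpl group 0 of the 12 passed, the median log2 difference was 0.21, and the adjusted p was 0.29 for H2-Eb1 and 0.54 for Cd74. In the group itself H2-Eb1 stood at 5646 and 5417 CPM in the young and 6995 and 6699 CPM in the aged cells. In the other cells it stood at 10884 and 10973 CPM in the young and 13110 and 12562 CPM in the aged cells.

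Class II genes share promoter elements, among them a Y box that binds the factor NF-Y and is read as CCAAT or, on the other strand, ATTGG. The 120 bases before the RefSeq start sites of the 2 MHC genes of the list that rose are shown. The stretch of Cd74, which also rose, was not examined, and the part of the motif in the rises was not tested. H2-Eb1 lies on chromosome 17 at chr17:34305867-34316674 on the plus strand and H2-Oa at chr17:34092340-34095234 on the plus strand (GRCm38, GENCODE M21). The stretches shown are chr17:34305747-34305866 and chr17:34092259-34092378, from RefSeq on GRCm38.p6, 5′ to 3′, with CCAAT or ATTGG in capitals.
H2-Eb1: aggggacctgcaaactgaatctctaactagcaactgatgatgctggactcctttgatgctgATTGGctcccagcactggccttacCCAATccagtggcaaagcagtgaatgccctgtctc
H2-Oa: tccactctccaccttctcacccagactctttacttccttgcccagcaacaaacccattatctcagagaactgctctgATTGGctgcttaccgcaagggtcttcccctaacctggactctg
The letters begin 59 and 35 bases before the start site of H2-Eb1 and 43 bases before that of H2-Oa. In windows of 300 bases around the start site, 37.4% of 32851 mouse promoters hold 1 or more of the motif in either direction, and the windows of Ctss and Ifi30 hold 0.

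Of 20 tested genes of MHC class I presentation 0 passed in either direction, with 15 positive values and a median log2 difference of 0.36, close to that of the class II genes. Of 11 tested costimulation and checkpoint genes 0 passed. Over all tested genes 1.2% passed, so 0 in lists of this size does not set them apart. Cd86, a ligand of CD28, stood at 21.2 and 16.5 against 21.1 and 28.2 CPM with overlapping ages (adjusted p = 0.57), and Cd40 at 19.2 and 19.9 against 30.8 and 18.8 CPM (adjusted p = 0.69). Napsa (628 and 757 against 938 and 932 CPM, adjusted p = 0.13) and Plbd1 (656 and 762 against 835 and 828 CPM, adjusted p = 0.35) did not pass either.

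Ribosomal proteins formed the largest listed group of rises, with 26 of 48 genes higher, 0 lower and a median log2 difference of 0.46. Rpl13 stood at 3221 and 3162 CPM in the young and 5057 and 4739 CPM in the aged libraries (0.62, adjusted p = 0.014), and Rps24 at 5686 and 5788 against 8284 and 8184 CPM (0.52, adjusted p = 0.014). Rpl15 and Rps7 were among the 12 largest rises, at log2 differences of 0.82 and 0.76. Without the Lyz1, Fn1 and Lpl group 0 of 48 passed and the median was 0.31. The part of cell quality in this group was not tested. The median mitochondrial share was 2.13% and 1.88% in the young cells and 1.32% and 1.34% in the aged ones. Gm42418, a transcript that overlaps ribosomal RNA, fell from 19710 and 18607 CPM to 10809 and 9115 CPM (−0.94, adjusted p = 0.0090), and in fibroblasts of the same libraries it stood at 23219 and 21736 against 13133 and 10733 CPM.

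Retnla fell in the aged cells. It stood at 3176 and 2113 CPM in the young and 513 and 331 CPM in the aged libraries, 6.27-fold lower, with the ages far apart (log2 difference −2.65, SE 0.24, adjusted p = 0.0090). Within the Lyz1, Fn1 and Lpl group Retnla stood at 9773 and 6111 CPM in the young and 3273 and 2144 CPM in the aged cells. In aged replicate 1 the value rested mostly on 1 cell, which held 626 of 728 Retnla UMIs. In aged replicate 2 it rested on 1 cell in part, with 310 of 598. Without the cell with the most Retnla in each library the group held 9075 and 5279 CPM in the young and 542 and 1083 CPM in the aged libraries. The fall was not particular to the selected cells. Otherwise eligible barcodes with 0 Cd209a UMIs held Retnla at 12538 and 11320 CPM in the young and 3381 and 3336 CPM in the aged libraries.

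In the cells outside the group Retnla stood at 466 and 440 against 80 and 68 CPM (log2 difference −2.55, adjusted p = 2.9e-05). More than 2 UMIs were found in 14 of 90 and 11 of 91 young cells and in 2 of 152 and 6 of 308 aged cells there. Retnla was also present in gates that should lack it. Fibroblasts held 746 and 546 against 594 and 395 CPM, and T cells held 1790 and 2314 against 426 and 545 CPM. The part of free RNA in the level outside the group was not tested.

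The genes that mark the group also fell. In summed counts fewer such cells and less RNA per cell cannot be told apart. Lyz1 stood at 276 and 194 against 48.3 and 50.7 CPM (log2 difference −2.25, adjusted p = 0.0090), Fn1 at 721 and 512 against 219 and 127 CPM (−1.84, adjusted p = 0.024), and Lpl at 240 and 427 against 91.8 and 111 CPM (−1.71, adjusted p = 0.027). Aldh1a2, which makes retinoic acid, stood at 64.6 and 72.8 against 9.66 and 15.2 CPM (−2.42, adjusted p = 0.011), and Cd24a, a glycoprotein of the cell surface, at 200 and 170 against 64.0 and 50.7 CPM (−1.70, adjusted p = 0.011). In all 5 genes the ages were apart. Without the group Aldh1a2 and Cd24a no longer passed (adjusted p = 0.22 and 0.17), nor did Fn1 and Lpl, 2 of the genes that define it.

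Several falls passed in the remaining cells too. Gda, guanine deaminase, stood at 222 and 223 against 73.7 and 52.0 CPM (−1.83, adjusted p = 0.011), and without the group at 90.6 and 112 against 34.3 and 30.7 CPM (−1.64, adjusted p = 0.0099). In fibroblasts Gda stood at 71.7 and 63.5 against 82.6 and 73.0 CPM, so the aged cells outside the group were below that level. Psap, the precursor of the saposins that help break down lipids in lysosomes, stood at 2654 and 2457 against 1566 and 1520 CPM (−0.73, adjusted p = 0.014) and without the group differed by −0.67 (adjusted p = 0.037). Pdlim1, Fcrls, Pltp and Tppp3 also passed both ways, with log2 differences of −1.48, −1.24, −1.11 and −1.88 in all cells and −1.44, −1.04, −1.06 and −2.14 without the group. Tppp3 is abundant in the fibroblast gate, at 273 and 320 CPM in the young and 201 and 172 CPM in the aged libraries.

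Hspa1a, an inducible heat shock protein, stood at 693 and 658 against 328 and 275 CPM (−1.17, adjusted p = 0.011), and its neighbour Hspa1b at 476 and 417 against 214 and 109 CPM (−1.48, adjusted p = 0.048). These near-identical copies may share reads. Both were counted in a list of 12 heat shock genes, of which 2 fell and 0 rose, with a median of −0.40. Hspa1a also stood lower in the aged libraries of the C1q gate, at 574 and 589 against 330 and 193 CPM.

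Of 14 tested chemokines 2 fell and 0 rose. Ccl6 stood at 1020 and 954 against 577 and 630 CPM (−0.71, adjusted p = 0.024) and Ccl9 at 686 and 578 against 377 and 362 CPM (−0.77, adjusted p = 0.027). Without the Lyz1, Fn1 and Lpl group 0 chemokines passed, with adjusted p of 0.45 for Ccl6 and 0.11 for Ccl9. Among 10 tested genes of the interleukin 4 and 13 response, 2 fell, Retnla and the mannose receptor Mrc1 (301 and 264 against 158 and 135 CPM, −0.95, adjusted p = 0.026), and 0 rose. Among 30 interferon response genes 1 fell, the GTPase Gbp3, and 0 rose, with a median of −0.0026. None passed among 8 cytokines, 13 pattern recognition genes, 22 growth factor and cytokine receptors, 29 transcription factors, 22 immediate early genes, 35 genes of oxidative phosphorylation and 8 senescence genes. Over all tested genes only 1.2% passed, so a count of 0 or 1 in lists this short does not set them apart from the rest. Il1b, interleukin 1 beta, stood at 189 and 402 against 554 and 539 CPM and did not pass (log2 difference 0.89, adjusted p = 0.19).

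The transcription factors and surface proteins that define the lineage did not pass. Irf4 stood at 95.8 and 69.5 against 76.1 and 58.7 CPM (adjusted p = 0.55) and Klf4 at 292 and 290.2 against 322 and 289.7 CPM (adjusted p = 0.83), both with overlapping ages. Zbtb46, a factor of conventional dendritic cells, stood at 29.3 and 35.3 against 42.9 and 43.0 CPM (adjusted p = 0.40), and Flt3 at 65.6 and 41.9 against 77.3 and 66.4 CPM (adjusted p = 0.45). Sirpa, the inhibitory receptor that marks the lineage, stood at 144 and 137 against 153 and 124 CPM (adjusted p = 0.96). A difference that missed the threshold is not shown to be absent. Among 24 genes of the cytoskeleton and motility 2 rose and 0 fell. These were the calcium-binding S100a4, at 987 and 944 against 1658 and 1369 CPM (0.65, adjusted p = 0.038), and the actin-binding Tmsb10, at 2226 and 2419.6 against 3209.8 and 3202 CPM (0.46, adjusted p = 0.038). Of 23 cell cycle genes 1 rose, beside 0.748% of all tested genes. This was the histone variant gene H2afz, at 1434 and 1530.3 against 2193 and 2007 CPM (0.50, adjusted p = 0.042).

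**Figure D4:**
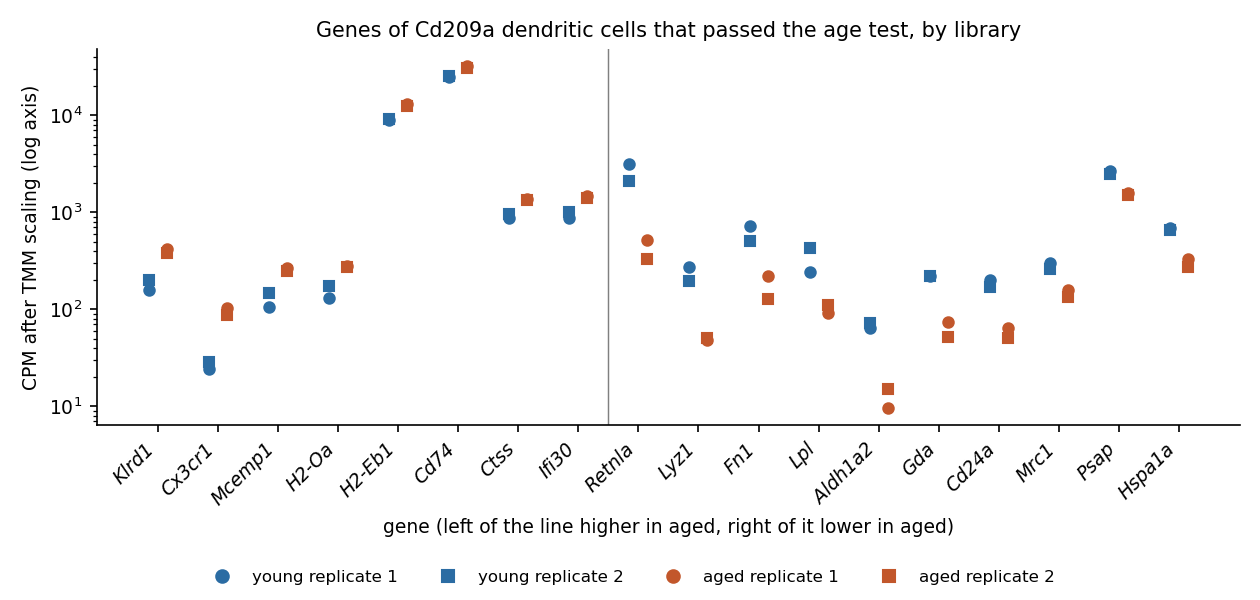
CPM after TMM scaling (log axis) of 18 genes that passed the age test, in each library (blue young, orange aged; circle replicate 1, square replicate 2). The 8 genes on the left lie higher in both aged libraries, for example Klrd1 at 423 and 384 against 159 and 199 CPM, and the 10 on the right lie lower, for example Retnla at 513 and 331 against 3176 and 2113 CPM.

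Summed transcripts of other cell types moved between libraries. A list of 8 fibroblast markers summed to 1990 and 4196 CPM in the young and 919 and 2199 CPM in the aged cells, beside 34927 CPM or more in the fibroblast gate. A list of 6 tubule markers summed to 1998 and 5040 against 57.8 and 633 CPM. The monocyte list of 14 genes summed to 6357 and 5221 against 4019 and 4336 CPM, with 2 of 12 tested members lower. This was not low: in the young cells it exceeded the cells' own list of 20 type 2 markers (4260 and 4503 CPM), and the monocyte gate itself held 38441 to 43145 CPM. The macrophage list of 16 genes summed to 1135 and 917 against 841 and 944 CPM, beside 39388 CPM or more in the C1q gate. The part of these transcripts in the age calls was not tested beyond leaving out cells that carried fibroblast, tubule, endothelial or T cell transcripts. This gave 170 higher and 181 lower genes. Monocyte and macrophage transcripts were not used to leave out cells in that step. Igkc, an antibody light chain, was at 0 and 2.21 against 114 and 273 CPM in the selected cells (adjusted p = 0.011). Fibroblasts, which should lack it, held near levels, at 2.23 and 2.63 against 118 and 259 CPM. The part of free RNA in the Igkc of the selected cells was not tested.

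Whether the age change was the same in macrophages of the same libraries was tested with the difference of the 2 changes. Of 14259 genes, the change was more positive in Cd209a cells for 26 (0.182%) and more negative for 68 (0.477%), by edgeR's quasi-likelihood test with the library as a term. Levels below are scaled over both gates together. Mgl2, a galactose-binding lectin, stood in macrophages at 1175 and 1198 against 450.5 and 456 CPM and at 880 and 1101 against 1380 and 1304 CPM in Cd209a cells. The log2 difference of the changes was 1.83 (SE 0.12, adjusted p = 3.7e-07). In the age test of the Cd209a cells alone Mgl2 did not pass (log2 difference 0.40, adjusted p = 0.17 by edgeR). Without the Lyz1, Fn1 and Lpl group it differed there by 0.11 (adjusted p = 0.82). Retnla was lower with age in both gates, at 15792 and 14032 against 10782 and 7718 CPM in macrophages, and the change was more negative in Cd209a cells (−1.90, adjusted p = 3.7e-07). Psap went opposite ways, at 1784 and 1644 against 2469 and 2204 CPM in macrophages and 2598 and 2421 against 1596 and 1528 CPM in Cd209a cells (−1.13, adjusted p = 1.4e-05).

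Gda stood at 254 and 219 against 239 and 177 CPM in macrophages, and its change was more negative in Cd209a cells (−1.60, adjusted p = 1.4e-05). Ms4a6c stood at 390 and 393 against 353 and 378 CPM in macrophages, where Cd209a cells rose (difference 1.00, adjusted p = 0.00080). Cx3cr1 stood at 83.0 and 57 against 87.8 and 117 CPM in macrophages (difference 1.35, adjusted p = 0.036). For the class II genes and Hspa1a the 2 gates gave near values. The difference of the changes was 0.04 (SE 0.13) for H2-Eb1, 0.10 (SE 0.11) for Cd74, 0.09 (SE 0.11) for Ctss and 0.04 (SE 0.15) for Hspa1a, with adjusted p of 0.83 or more. Ifi30 differed by 0.51 (adjusted p = 0.051).

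**Figure D5:**
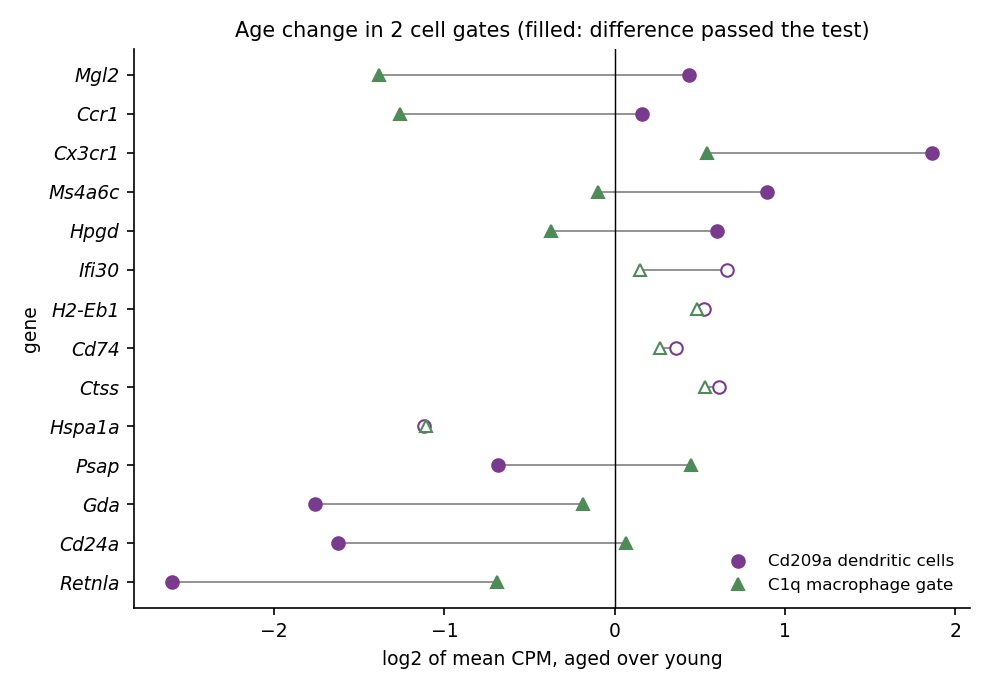
Log2 of the mean CPM in aged over young libraries for 14 genes in Cd209a dendritic cells (circles) and in the C1q macrophage gate (triangles), joined by a line; filled symbols mark genes whose difference passed the test. Mgl2 lies on opposite sides of 0, though its change in Cd209a cells alone did not pass the age test, and H2-Eb1, Cd74, Ctss and Hspa1a lie close together.

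Against type 1 dendritic cells of the same libraries, 0 of 9674 genes passed in edgeR (0% in either direction), with 475 at an unadjusted p under 0.05 and a smallest adjusted p of 0.051. That smallest value belonged to Cd24a, which stood at 193 and 164 against 63.5 and 49.5 CPM in Cd209a cells and 505 and 417 against 474 and 435 CPM in type 1 cells (difference −1.65, SE 0.16). H2-Eb1 stood at 6929 and 6842 against 8215 and 8030 CPM in type 1 cells, a difference of 0.27 (SE 0.06, adjusted p = 0.67). With the highest doublet scores removed 10 genes passed. The same comparison with Ly6c2 monocytes was not made because young replicate 1 held 16 of them, under the minimum of 20.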

How the data were processed

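Gel bead droplet libraries (10x Genomics, 3′ chemistry v3.1) of whole renal capsule were made from 2 young and 2 aged samples, per the labels. The deposited values are raw UMI counts per gene and barcode. Per the submitters' processing notes they were made with Cell Ranger 6.0.2 on GRCm38, whereas the file headers name 6.0.1; the annotation is not given in the sources used here.

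Barcodes were filtered and selected as stated in the report. The members and gene lists (21 of functions, 14 of cell type markers) were chosen with earlier results of these data known. Counts of the selected cells were summed per library and tested with edgeR 4.0.16 (TMM, filterByExpr, quasi-likelihood, Benjamini-Hochberg) in R 4.3.3; DESeq2 1.42.0 was an alternative. Exact permutation of 2 against 2 libraries cannot go below p = 0.333. Tested on data drawn from the age comparison's own means (8386 genes), the procedure called 44% of 2-fold and 95% of 4-fold differences. It also called 5 genes that were not changed. All genes were drawn with the same spread between libraries, so genes with a wider spread are not covered.

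Doublets were scored with Scrublet in scanpy 1.11.5 and kept, and the highest scores were removed in an alternative. The share removed was set at 0.8% per 1000 kept barcodes of a library. The other gates were exclusive, set by the UMIs of a few genes. Genes were named by rule: the 12 largest rises and falls that passed, were apart between ages, reached 50 CPM in the higher age and 20% of the highest other gate, up to 4 called genes a list, and a set of dendritic cell genes whatever their p. Lyz1, Fn1, Igkc, Hpgd and Gm42418 were named after their values were seen. Gene positions are from GENCODE M21, which held 99.7% of the 52636 gene identifiers.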

Additional observations from a re-analysis of the deposited data

Results flagged for a closer look

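For the genes below the age change differed between Cd209a dendritic cells and C1q macrophages of the same libraries, by edgeR's test of that difference at an adjusted p under 0.05. Values are the change in Cd209a cells minus that in macrophages, on the log2 scale. No group held more than 2 libraries, so no library was tested as an outlier.

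Mgl2 (1.83), Ms4a6c (1.00), Hpgd (0.99), which inactivates prostaglandins, and the chemokine receptor Ccr1 (1.42) were more positive in Cd209a cells and passed under all 9 alternatives tried for this comparison. In macrophages Ccr1 stood at 109 and 119 CPM in the young and 50.1 and 43.9 CPM in the aged libraries, whereas Cd209a cells held 66.2, 52.2, 75.1 and 57.2 CPM. Cx3cr1 (1.35) passed under 6 of 9 alternatives, Vaultrc5 (1.53) under 8, and Adamts5 (1.87) and Birc5 (1.33) under 4 each. Birc5, a protein of dividing cells, stood at 19.7 and 19.8 against 8.7 and 12.8 CPM in macrophages and at 104 and 62.0 against 134 and 96.0 CPM in Cd209a cells.

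More negative in Cd209a cells were Retnla (−1.90), Gda (−1.60), Psap (−1.13) and the fatty acid binding protein Fabp5 (−2.56), which passed under all 9 alternatives. Fabp5 stood at 25.6 and 20.7 against 62.6 and 78.9 CPM in macrophages and at 59.3 and 72.8 against 41.2 and 28.4 CPM in Cd209a cells. Ms4a8a (−2.68) and Kap (−2.67) passed under 8 of 9, and Cd24a (−1.72), Lyz1 (−1.34), Slpi (−6.70) and C130026I21Rik (−3.31) under 7. Cd55 (−2.97) passed under 6. Slpi in macrophages stood at 13.2 and 4.0 CPM in the young and 286 and 19.3 CPM in the aged libraries, so 1 library stood far above the others. Kap is a tubule transcript, at 33432 CPM in the tubule gate of aged replicate 1 and at 794, 3611, 1.23 and 217 CPM in the Cd209a cells.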

How the results depend on the processing

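The rise in the share of kept barcodes kept its direction under all 14 alternatives (log2 difference 0.19 to 1.38) and lost its call without young replicate 2 (0.99) and with TMM over the gates (0.19); leaving out each library gave 0.97 to 1.15. With a replicate block it was 1.07 (adjusted p = 0.010). The share of dendritic barcodes, not called, turned to 0.0113 in cells thinned to 3000 UMIs.

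Counts of age genes (65 higher and 39 lower) moved most. They were 7 higher with a C1q sum under 2 UMIs, 131 lower with Cd209a of at least 1 UMI, 141 and 138 with at least 3 UMIs, 206 and 290 without the highest doublet scores, 157 and 112 without a filter, 132 higher in DESeq2, 62 lower in thinned cells, 170 and 181 without cells that carried transcripts of another class, and 3 and 14 without the Lyz1, Fn1 and Lpl group. The last 2 sets of cells were left out after seeing the data, and so were dividing cells (83 and 56). Leaving out each library gave 1 to 83 higher and 8 to 143 lower. Without TMM 44.1% of the calls were higher, beside 62.5% with it, and the median log2 difference was −0.12. No called gene named in the text changed sign under any of these.

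The replicate numbers pair nothing in the labels, and the deviations of equal numbers correlated at 0.20 over 8707 genes, with 2 pairs only. With the replicate block 278 genes were higher and 346 lower, and all 45 named called genes kept their call. Of these 45, 4 kept it without young replicate 1, 7 without young replicate 2, 30 without aged replicate 1, 43 without aged replicate 2, and 12 of 44 tested without the Lyz1, Fn1 and Lpl group.

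Differences from macrophages (94 genes) numbered 39 with a C1q sum under 2, 236 without the highest doublet scores, 358 without a filter, 43 without the Lyz1, Fn1 and Lpl group and 158 to 301 leaving out each library. Adamts5 turned to −0.56 without the highest doublet scores and −0.52 without the group, where Kap turned to 2.20 and Lyz1 to 1.59. Differences from type 1 cells (0 genes) numbered 10 without the highest doublet scores, 2 without TMM and 0 to 2 leaving out each library. The causes were not tested. In data simulated for the age comparison, with the same spread for all genes, 44% of 2-fold and 95% of 4-fold differences were called.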
